A study of Drosophila melanogaster with 2 samples.

Results

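The genes described here encode 10 proteins of the trithorax group and the Brahma chromatin-remodelling complex of Drosophila melanogaster: trx, ash1, ash2, trr, Utx, brm, mor, osa, Snr1 and tna. They were found by symbol in the gene annotation, a rule that uses no peak, although the set was put together with earlier results of these data known. They are 10 of 13945 protein-coding genes on the chromosome arms used. The data are peaks from chromatin immunoprecipitation with sequencing (ChIP-seq) of CG17829, a zinc finger protein named Hinfp in the annotation, tagged with green fluorescent protein (GFP) at its C terminus and pulled down with an anti-GFP antibody. The single group held 2 biological replicates, numbered 4 and 2, of mixed-sex whole embryos aged 0 to 24 hours from 1 transgenic line, CG17829, that stably expresses the fusion. Whether those embryos also made the untagged protein is not stated in the labels. A peak from whole embryos of all these ages cannot be tied to a cell type or a stage.

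Trithorax group proteins keep developmental genes, the homeotic genes above all, in an active state, and they act against the silencing by Polycomb group proteins. Some of them write or erase marks on histone H3: Trx and Trr methylate lysine 4, Ash1 methylates lysine 36, Ash2 is a core subunit of the lysine 4 methyltransferase complexes, and Utx removes methyl groups from lysine 27. Others belong to the SWI/SNF family remodeller that moves nucleosomes with the ATPase Brm, with Mor and Snr1 as core subunits and Osa as the subunit that marks the BAP form of the complex. Tna (tonalli) is an SP-RING protein whose gene interacts genetically with the Brahma genes.

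4 peak lists in dm6 coordinates were deposited. Each replicate list and the pooled list, made from both replicates, held 30000 peaks, a fixed length. A further list, cut by irreproducible discovery rate (IDR) to peaks whose ranks repeat between replicates, held 7915 peaks, and these were the strongest of the pooled list. Each peak carries the authors' signal value on a scale the sources do not define, so peaks are compared by rank within a list, with rank 1 the strongest. IDR signal values ran from 137.9 to 5569 with a median of 241.3. Read depth is unknown. With 1 group and no second condition no test was run, and each count is set beside the same count over all protein-coding genes. Genes are not replicates of one another.

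9 of the 10 genes had a promoter summit in the IDR list, that is a summit no more than 250 bp from an annotated transcription start, against 31.7% of all protein-coding genes. The exception was Utx. Among the strongest 7915 peaks of replicate 4 the count was 9 of 10 genes, against 30.4% of all protein-coding genes, and among those of replicate 2 it was 10 of 10, against 32.1%. In the pooled list all 10 genes had one, against 48.9%. The promoter summits were of ordinary strength: their median rank was 3603, against 3636 for the best promoter summit of the 4416 protein-coding genes that had one. The distance that defines a promoter mattered. Within 100 bp of a start the count was 4 of 10 genes, against 18.2% of all protein-coding genes.

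Another 21 IDR summits lay inside 5 of the genes, away from the gene's own starts, and 4 of them were among the 150 strongest peaks of the IDR list. They fell in trx, Utx, brm, osa and tna, and in none of ash1, ash2, trr, mor and Snr1. An IDR summit inside the gene body was thus found in 5 of 10 genes, against 16.7% of all protein-coding genes. The median length of all 10 genes was 8.31 kb, against 2.17 kb for all protein-coding genes. Of the 10 genes only trx (23.5 kb), osa (30.5 kb) and tna (41.0 kb) were longer than 20 kb. Each of them had a body summit, against 59.0% of all protein-coding genes of 20 kb or more. Utx (6.49 kb) and brm (12.8 kb) were shorter. Per length, the gene bodies held 1.63 IDR summits per 10 kb (23 in 140.8 kb, including 2 promoter summits), against 0.445 per 10 kb over all protein-coding gene bodies. Of the 23, 13 lay in tna alone.

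**Figure D1:**
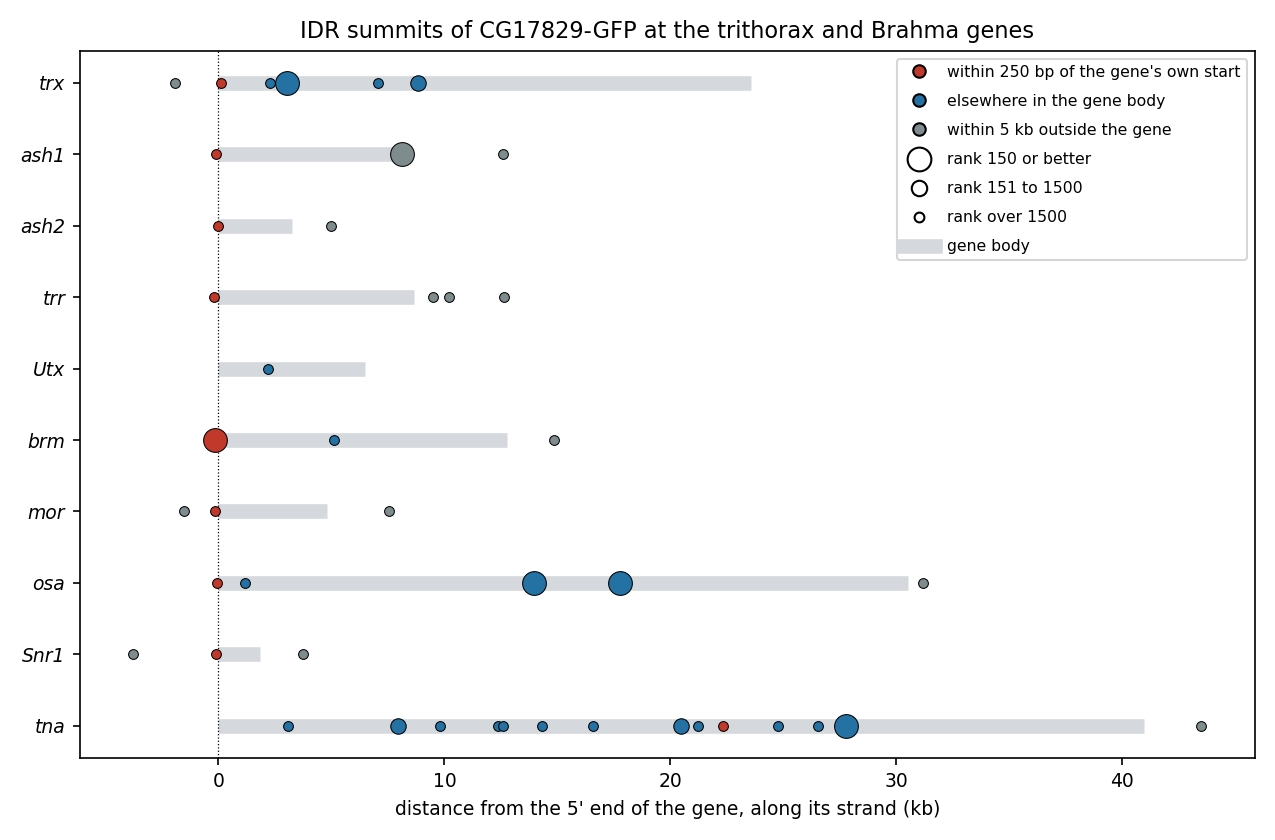
Position of each of the 44 IDR summits in the gene bodies or within 5 kb, as the distance in kb from the 5' end of the gene along its strand. Each row is a gene, the bar is the gene body, colours give the place of the summit and larger circles a better rank in the IDR list. The largest circles are the promoter summit of brm (rank 90), the summits inside tna (rank 14), osa (ranks 82 and 83) and trx (rank 117), and a summit beyond the 3' end of ash1 (rank 17).

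The sequences around the strongest summits are shown because they differ in base composition although the peaks are all among the 150 strongest. Each window runs 50 bp to each side of the summit, is written 5' to 3' on the strand of the gene, and comes from the RefSeq sequence of the same assembly. Capitals mark ATATTA (or its reverse complement) and GGTGGCGC, both chosen after the sequences were seen.
tna, intron, rank 14, chr3L:10863235-10863335, plus strand: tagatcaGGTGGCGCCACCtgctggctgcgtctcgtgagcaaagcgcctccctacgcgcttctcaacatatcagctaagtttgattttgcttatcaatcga
osa, intron, rank 82, chr3R:17700533-17700633, minus strand: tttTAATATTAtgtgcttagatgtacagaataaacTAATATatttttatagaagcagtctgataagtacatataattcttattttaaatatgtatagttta
osa, intron, rank 83, chr3R:17704351-17704451, minus strand: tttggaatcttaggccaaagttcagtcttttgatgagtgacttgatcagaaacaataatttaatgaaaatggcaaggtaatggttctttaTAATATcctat
brm, promoter, rank 90, chr3L:15982956-15983056, minus strand: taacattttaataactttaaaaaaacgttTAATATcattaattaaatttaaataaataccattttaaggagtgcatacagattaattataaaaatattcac
trx, intron, rank 117, chr3R:14283821-14283921, minus strand: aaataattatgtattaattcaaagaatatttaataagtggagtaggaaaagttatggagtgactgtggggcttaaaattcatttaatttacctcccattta

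Promoter sequences of 4 weaker peaks are shown for the letters they hold. Capitals mark CGATA, a sequence recognised by the boundary factor BEAF-32 and chosen here after the sequences were seen, ATATTA, and CGTCCG, a piece of the human HINFP recognition sequence. Bases of annotated untranslated regions were left out, which shortened the windows of ash2 and tna.
ash1, rank 3636, chr3L:19598819-19598919, minus strand: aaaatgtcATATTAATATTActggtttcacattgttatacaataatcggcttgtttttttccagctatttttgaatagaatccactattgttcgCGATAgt
ash2, rank 5036, chr3R:24650044-24650124, plus strand: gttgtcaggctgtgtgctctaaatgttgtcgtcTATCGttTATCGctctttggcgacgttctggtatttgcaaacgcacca
osa, rank 6283, chr3R:17718358-17718458, minus strand: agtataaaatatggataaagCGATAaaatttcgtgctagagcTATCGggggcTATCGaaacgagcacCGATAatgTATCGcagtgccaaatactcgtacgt
tna, rank 2313, chr3L:10857805-10857888, plus strand: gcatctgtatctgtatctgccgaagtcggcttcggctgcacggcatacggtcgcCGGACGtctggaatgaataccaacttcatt

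The Brahma complex genes held both the strongest and the weakest of the promoter summits. At brm, the ATPase gene (FBgn0000212, chr3L:15970082-15982869, minus strand), the promoter peak spanned 15982797 to 15983221 with its summit 137 bp upstream of the nearest brm start. It had rank 90 and signal 1767 in the IDR list, rank 78 and signal 826.5 in replicate 4, and rank 95 and signal 942.7 in replicate 2. Both replicates placed it among their 100 strongest peaks. The summit lies between brm and Arl1, a gene for a small GTPase of the Golgi, whose start was 129 bp away, so the peak cannot be assigned to one of the pair. A weaker summit, with IDR rank 3501, lay 5.10 kb into brm, in an intron of all 6 transcripts and inside the body of CG17029, which the annotation places there too.

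At mor, which encodes a core scaffold subunit (FBgn0002783, chr3R:15968134-15972913, minus strand), the promoter summit was 165 bp upstream of the start and 220 bp from that of Hel89B, the gene of another Snf2-family ATPase. Its IDR rank was 2485, and its rank was 3253 in replicate 4 and 2066 in replicate 2. A stronger summit, with IDR rank 1540, lay 1510 bp upstream of mor inside an intron of Hel89B. Snr1 (FBgn0011715, chr3R:5470926-5472754, plus strand), the gene of the SNF5-related core subunit, had its promoter summit 90 bp upstream of the start and 200 bp from that of the mitochondrial ribosomal protein gene mRpL44. Its rank was 3603 in the IDR list, 3815 in replicate 4 and 4174 in replicate 2. In both genes the IDR list had no summit inside the gene body.

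Osa (FBgn0261885, chr3R:17687818-17718350, minus strand) showed the opposite arrangement, with a weak promoter summit and strong summits deep in the gene. The promoter summit lay 58 bp upstream of its only annotated start. It had rank 6283 in the IDR list, 6713 in replicate 4 and 7039 in replicate 2, the lowest of the 9 IDR promoter summits. The summits with IDR ranks 82 and 83 lay 17.8 kb and 13.9 kb downstream of that start, in intron 4 of all 6 transcripts. The first had rank 79 in replicate 4 and 86 in replicate 2, and the second had rank 74 in replicate 4 and 90 in replicate 2. Long noncoding RNAs are annotated inside this intron. The summit of rank 82 was 158 bp from the start of lncRNA:CR46036, and that of rank 83 lay in an exon of lncRNA:CR46035, so the pair need not belong to osa.

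Tna (FBgn0026160, chr3L:10835528-10876496, plus strand) held 13 IDR summits in 41.0 kb, or 3.17 per 10 kb, and only 3 of the 13945 protein-coding genes held more in their bodies. Its longest transcript starts at 10835528, where the IDR list had no promoter summit, and the first summit lay 3.06 kb downstream. The promoter summit, with rank 2313, lay 34 bp upstream of an internal start. It had rank 2330 in replicate 4 and 2532 in replicate 2. The strongest summit of the gene, with rank 14 in the IDR list, 14 in replicate 4 and 16 in replicate 2, lay 4.88 kb downstream of the nearest start, in the first intron of 3 of the 4 transcripts.

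The other summits of tna ran from IDR rank 417, 1.90 kb upstream of the nearest internal start, to rank 6245. The peaks of ranks 2321 and 6245 overlapped each other and matched the same peak in each replicate, so they may be a single place counted with a pair of summits. All 13 summits lay in introns of at least 1 transcript. In the pooled list tna held 40 summits, in replicate 4 35 and in replicate 2 38.

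Among the histone-modifying genes trx stood apart with several summits inside the gene. Trx (FBgn0003862, chr3R:14263358-14286903, minus strand) held 5 IDR summits in its body. The strongest, with rank 117, was 3.03 kb downstream of the only annotated start, in the first intron of all 5 transcripts, and had rank 111 in replicate 4 and 131 in replicate 2. The next, with rank 726, was 8.83 kb downstream, with rank 901 in replicate 4 and 603 in replicate 2. Summits of ranks 4326 and 7173 lay in the same first intron. The promoter summit, with IDR rank 4958, was the only one of the 9 that lay downstream of the start, by 112 bp. Its position was less certain than its presence: replicate 2 placed it 110 bp downstream and replicate 4 placed it 6 bp upstream.

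Ash1, ash2 and trr had a single IDR summit each at their start and none inside the gene. At ash1 (FBgn0005386, chr3L:19590773-19598755, minus strand) the summit was 114 bp upstream of the start and 219 bp from that of Taf6, a gene of the general factor TFIID. Its rank was 3636 in the IDR list, 3586 in replicate 4 and 3920 in replicate 2. At ash2 (FBgn0000139, chr3R:24650125-24653376, plus strand) the summit lay in the short gap between ash2 and puf, a ubiquitin protease gene, 43 bp from the first and 39 bp from the second. Its rank was 5036 in the IDR list, 4276 in replicate 4 and 6090 in replicate 2. The summit of trr (FBgn0023518, chrX:1881313-1889950, minus strand) was 185 bp upstream, nearer to the start of the mitochondrial ribosomal protein gene mRpL16 at 121 bp. It had rank 2273 in the IDR list, 2568 in replicate 4 and 2254 in replicate 2.

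Utx, the demethylase gene (FBgn0260749, chr2L:10272325-10278811, minus strand), was the one gene without an IDR promoter summit, yet weaker lists had one. The pooled list placed a summit 50 bp upstream of an internal start, with rank 9224 and signal 118.3, below the lowest IDR signal of 137.9. Replicate 4 had it 89 bp upstream with rank 9521, and replicate 2 had it 49 bp upstream with rank 7832. The 1 IDR summit of Utx, with rank 2383, lay 532 bp downstream of the nearest start, in an intron of all 5 transcripts. Its rank was 2858 in replicate 4 and 2135 in replicate 2.

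Both replicates held a peak at every one of these places. All 44 IDR peaks with a summit in a gene body or within 5 kb overlapped a peak in each replicate list, against 98.9% of all IDR peaks, a list that was selected for such agreement. The ranks of the 2 matched peaks differed by a factor of 2 or less in 44 of 44 peaks, against 92.3% of all IDR peaks matched in both, with a median factor of 1.22 against 1.27. The largest factor was 1.94. The tna peaks of ranks 2321 and 6245 matched the same peak in each replicate, and both are counted among the 44. The median distance between summits was 12.5 bp to replicate 4 and 8 bp to replicate 2, and the largest was 118 bp to replicate 4, at the trx promoter, and 171 bp to replicate 2, in tna.

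**Figure D2:**
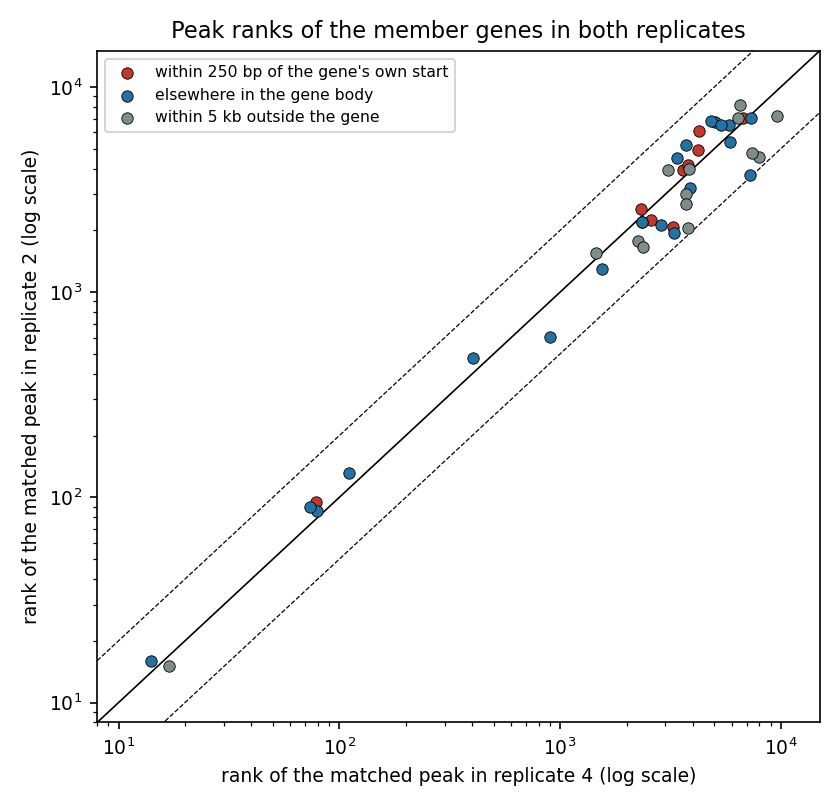
Rank of the matched peak in replicate 4 (x axis, log scale) and in replicate 2 (y axis, log scale) for the 44 IDR peaks of the 10 genes, coloured by place. The solid line marks equal ranks and the dashed lines a factor of 2, between which all 44 peaks lie. The tna peaks of IDR ranks 2321 and 6245 matched the same peak in each replicate and fall on the same point.

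Of the 9 promoter summits, 8 lay upstream of the start, against 86.0% of the best promoter summits of all protein-coding genes, so the count is near the background. The distance had a median of 112 bp and a range of 34 to 185 bp, against a median of 91.0 bp over all protein-coding genes with a promoter summit. For 6 of the 9 (brm, mor, Snr1, ash1, ash2 and trr) another gene had a start within 250 bp of the same summit, against 48.9% of those genes. At brm, ash2 and trr the other start was nearer. Without promoter summits that were nearer to another gene, a setting added after the data were seen, 6 of 10 genes were left, against 24.9% of all protein-coding genes.

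Of the genes with both a promoter summit and another summit in the body, 3 of 4 (trx, osa and tna, not brm) had their strongest summit outside the promoter. This was true of 61.3% of the 754 protein-coding genes with both, so the count is near the background.

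Within 5 kb outside the genes lay 14 further IDR summits, and 13 of these were at the start of a neighbouring gene. Over the whole IDR list 3809 of 7915 summits were promoter summits. No share is given for the flanks of other genes, so whether 13 of 14 is unusual there is not known. The strongest of the 14, with rank 17, lay just beyond the 3' end of ash1 and 91 bp from the start of CG14100. Others marked the starts of RpL35A, a ribosomal protein gene next to Snr1 (rank 1837), and of Brr2, a spliceosomal helicase gene next to brm (rank 1876). In all, 10 of 10 genes had an IDR summit in the body or within 5 kb, against 64.9% of all protein-coding genes. The 14 summits added no gene to that count, since each gene also had a promoter or body summit. The outermost summit counted lay 4592 bp from ash1 (rank 3619), and the nearest one not counted lay 5246 bp from osa (rank 2100).

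Base composition varied widely among the summits. A and T made up a median of 68.3% of the 101 bp around the 9 promoter summits (range 46.5% to 84.2%) and 70.3% around the 21 other body summits (45.5% to 88.1%). Of those 21, 19 counted as intron summits. The osa summits of ranks 82 and 83 did not, since they lay near the start or in an exon of long noncoding RNAs. The medians over the whole IDR list were 62.4% for promoter summits and 69.3% for intron summits, and it was 56.4% around all starts of protein-coding genes. The order of these medians depended on the window. With 100 bp on either side the median was 60.7% at the promoter summits of the genes, against 63.2% at all IDR promoter summits, and with 25 bp it was 68.6% at their other body summits, against 70.6% at all IDR intron summits. Among the 5 strongest peaks shown above, the brm promoter had 84.2% A and T and the osa summit of rank 82 had 81.2%, while the tna summit of rank 14 had 48.5%, which was above only 7.48% of all IDR windows. The most A and T of all was at the Utx intron, with 88.1%. Stronger IDR peaks were richer in A and T in general, with a median of 74.3% in ranks 1 to 100 and 64.4% in ranks 3958 to 7915.

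**Figure D3:**
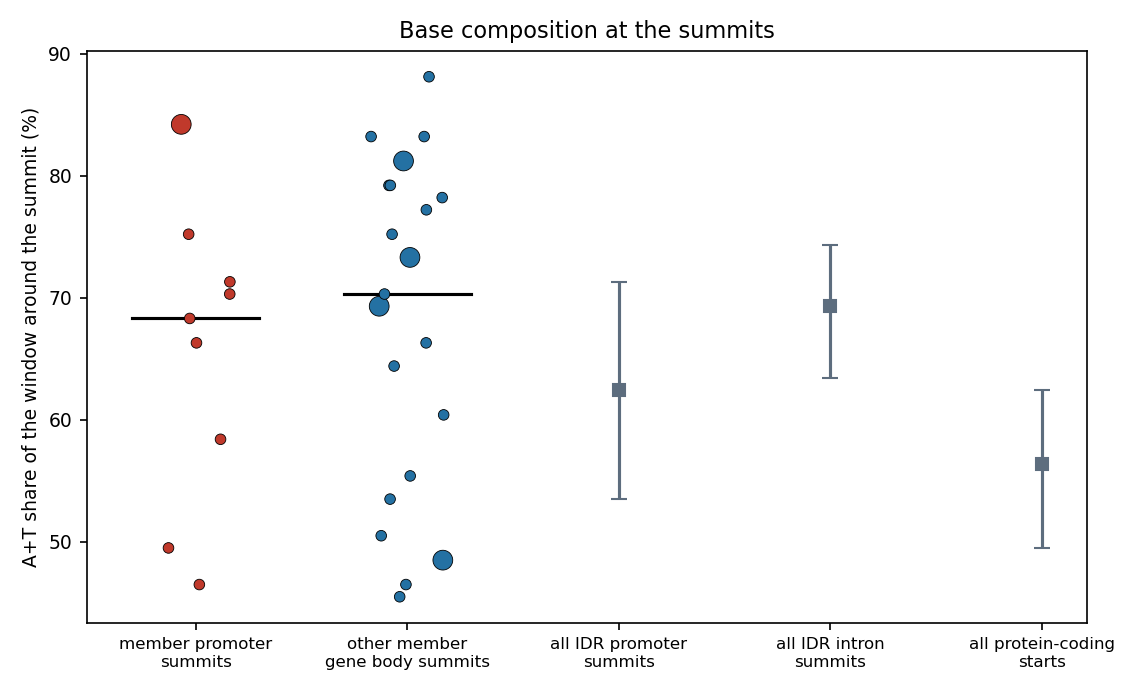
A and T share (y axis, percent) of the 101 bp centred on the summit. Points are single summits of the 10 genes, with large points for ranks of 150 or better and lines at the medians of 68.3% (promoter) and 70.3% (other body summits). Squares with bars give the median and quartiles over all IDR promoter summits, all IDR intron summits and all protein-coding starts. The large point at 48.5% is the tna summit of rank 14.

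Of 6 k-mers searched on both strands in the 30 promoter and body windows of the genes, GTCCGC, TATCGATA (the DRE sequence) and CAGGTA (the core of the Zelda site) were found in 0 windows. Over all IDR windows they were found in 1.39%, 3.41% and 2.10%, and over all protein-coding starts in 3.30%, 4.48% and 2.00%. TATCGATA was found in 6.72% of IDR promoter windows and 0.202% of IDR intron windows. With 100 bp on either side TATCGATA occurred in 2 of 30 windows, both at promoters of the genes, against 6.19% of IDR windows. CGTCCG, which overlaps GTCCGC, occurred in 1 window, the promoter of tna, against 1.06% of IDR windows and 3.69% of starts. GGTCACAC, a core promoter motif of fly housekeeping genes, occurred in 2, both inside tna, against 2.87% of IDR windows and 4.68% of starts. Both were at intron summits, and it was found in 0.323% of all IDR intron windows. In the 9 promoter windows of the genes it was found in 0, against 5.57% of IDR promoter windows. GAGAG, the sequence of the GAGA factor, occurred in 2 (6.67%), in osa and tna, against 10.5% of IDR windows and 12.7% of starts. With 100 bp on either side it occurred in 9 of 30, against 22.2% of IDR windows, so whether it lay below or above the whole list depended on the window.

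3 more k-mers were chosen after the sequences were seen. ATATTA occurred in 7 of the 30 windows (23.3%), near the 21.0% of IDR windows, against 6.48% of starts. CGATA, which TATCGATA contains, occurred in 6, against 19.7% of IDR windows and 23.6% of starts, and in the osa promoter it was present 5 times. GGTGGCGC, which forms a palindrome with its own reverse complement in the tna window of rank 14, occurred in 1, against 0.695% of IDR windows and 0.239% of starts. In the 100 strongest IDR windows it occurred in 1, which is this tna window. With 100 bp on either side of the summit ATATTA and CGATA each occurred in 8 of 30 windows (26.7%). That was below the 33.0% and 33.5% of IDR windows, so for both the order depended on the window. A match describes the letters of the window and no binding event.

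Partners and related proteins are encoded by 4 further gene lists, all of them small. Of 10 partners of the methyltransferase complexes, 6 (60.0%) had an IDR promoter summit, the strongest at Lpt, which with trr forms the fly counterpart of a mammalian MLL-family protein (rank 2671), the complex subunit gene Dpy-30L1 (rank 2759) and the menin gene Mnn1 (rank 3029). Of 8 further subunits of the BAP and PBAP forms of the Brahma complex, 5 (62.5%) had one, led by Bap60 (rank 1638), BCL7-like (rank 4376) and polybromo (rank 4961). Of 10 other trithorax group genes, 6 (60.0%) had one, led by Trl, the GAGA factor gene (rank 2828), the remodeller subunit gene E(bx) (rank 4000) and the bromodomain gene fs(1)h (rank 4035). Of 19 Polycomb group genes, 12 (63.2%) had one, led by E(z) (rank 148), Sfmbt (rank 1520) and Jarid2 (rank 2177). Each share was above the 31.7% of all protein-coding genes and below the 9 of 10 of the genes described here. No difference between lists was tested.

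**Figure D4:**
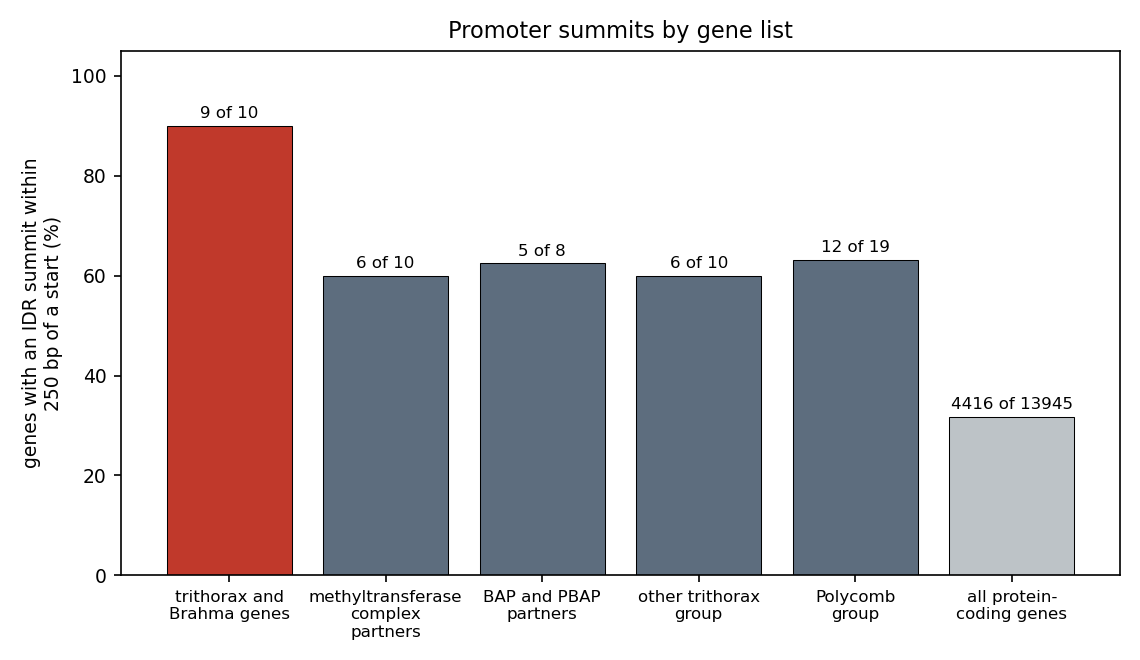
Share of genes with a promoter summit in the IDR list (y axis, percent) in the 10 trithorax and Brahma genes, in 4 related lists and in all protein-coding genes, with the counts above the bars. The share was 9 of 10 in the first list, 60.0% to 63.2% in the related lists and 31.7% in all protein-coding genes.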

How the data were processed

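The authors deposited 4 narrowPeak lists in dm6: 1 per replicate and 1 pooled list, each made from read alignments with 1 control alignment, and 1 IDR list derived from the others, per the deposited provenance notes. For the aligner, the peak caller and the IDR threshold no name or version was at hand. Column 7 of each list was used as the authors' deposited signal, on an undefined scale. Signal tracks were not analysed here.

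Gene models came from Ensembl 115 (BDGP6.54, dm6 coordinates), without transposons, on arms 2L, 2R, 3L, 3R, 4 and X. No peak ended past its arm. Positions count from 1. Second names were matched through the RefSeq gene table, and 1 Polycomb group symbol was left unmatched. Python 3.11.15 and numpy 2.4.6 were used, and the counting was checked on planted summits. A replicate peak matched an IDR peak when they overlapped by 1 bp or more, and the strongest was taken.

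The members and the gene lists were chosen with earlier results of these data known. The text names all members, genes with a start within 250 bp of a member's promoter summit, and the 3 genes with the strongest promoter summit in each related list. Other genes named, such as neighbours within 5 kb, were chosen after their values were seen. Both replicates are separate biosamples of 1 line.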

Additional observations from a re-analysis of the deposited data

How the results depend on the processing

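No paired analysis was possible because there is 1 group. The count of genes with an IDR promoter summit, 9 of 10, was 4 within 100 bp of a start (18.2% of all protein-coding genes), and it stayed within a factor of 1.5 in each other setting tried: 9 within 500 bp (36.5% of all protein-coding genes), 10 within 1000 bp (40.1%), 6 in the strongest 50% of the IDR list (17.2%), 10 in the pooled list (48.9%), 9 with RefSeq starts (31.6%) and 9 with starts of protein-coding transcripts (31.7%). Leaving out 1 replicate and taking the strongest peaks of the other gave 9 to 10 (30.4% and 32.1%). The count with a summit in the body or within 5 kb was 10, and 5 for the gene body alone (64.9% and 16.7% of all protein-coding genes). The 23 body summits were 13 in the strongest 50% of the IDR list, and 23 to 26 without 1 replicate. The promoter share of these 23 summits was 8.70%, and 3.85% to 13.0% in the other settings. This share counts summits at the gene's own starts that lie inside the body, here those of trx and tna. Most promoter summits lay upstream of the gene and were not counted in it. No share over all protein-coding gene bodies is given beside it. Of the 44 peaks, 42 had a summit within 100 bp in both replicates. In windows of 100 bp to each side TATCGATA was found at 2 of 30 summits (6.67%, against 6.19% of IDR windows). GGTCACAC was found at 4 (13.3%, against 5.02%) and GAGAG at 9 (against 22.2%). For TATCGATA and GAGAG this turned the order of the 50 bp windows round. In windows of 25 bp the order was also turned round for GGTCACAC, found at 0, against 1.53%, and for GAGAG, found at 2 (6.67%, against 5.71%). The median A and T share of the promoter summits was 68.6% in windows of 25 bp (62.7% at all IDR promoter summits) and 60.7% in windows of 100 bp (63.2%), below the whole list in the wider window. That of the other body summits was 68.6% in windows of 25 bp (70.6% at all IDR intron summits), below the list, and 67.7% in windows of 100 bp (66.7%). Without read depth, no interval could be given for a peak's rank.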

Other observations

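Among the related genes, several also held a number of IDR summits in the gene body, promoter summits included. The IDR list held 12 in the body of jing, a zinc finger gene of 120 kb in the Polycomb list. It held 5 in Trl (13.1 kb), 4 in ph-p (12.2 kb) and 4 in kis (40.1 kb), a chromodomain helicase gene. Trl and ph-p are thus much shorter than tna, with 13 in 41.0 kb. Of jing, Trl, ph-p and kis, only ph-p had no promoter summit. These genes were chosen after their values were seen. By list, a body summit was found in 6 of 19 Polycomb group genes and 6 of 10 other trithorax group genes. The count was 2 of 10 for the methyltransferase complex partners and 1 of 8 for the BAP and PBAP partners. Over all protein-coding genes it was 16.7%.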
